A study of Mus musculus with 32 samples.

Results

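Mouse epiblast-like cells (EpiLCs) harvested after 48 h of differentiation were set against the naive embryonic stem cells (ESCs) grown in 2i+LIF from which such cells are derived. All arrays titled as EpiLCs at 48 h (2 arrays) and as 2i+LIF ESCs without the BP14A label (2 arrays) were taken, which makes 4 of the 32 arrays of the series, and every annotated gene was compared. Both groups are labelled male and C57BL/6 and carry the Blimp1-mVenus and stella-ECFP reporters, which were made to show germ cell fate. These 4 arrays belong to 10 that the submitters took over from an earlier series, and the design text calls the arrays of a group biological duplicates. Whether the duplicates were separate cultures is not stated in the labels. Standard errors (SE) and p-values rest on how far the 2 arrays of a group lie apart, pooled per gene over all 16 groups of the series. They do not measure the spread of the 4 arrays compared, and the pooled spread may be technical only. Each sample was cDNA amplified from total RNA, labelled as biotin cRNA and hybridised to a 1-colour Affymetrix mouse array.

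Further groups of 2 arrays each served for comparison. EpiLCs at 36 h came from the parental BVSCR26rtTA clone, male, of C57BL/6 + 129 background, with Blimp1-mVenus, stella-ECFP and Rosa26-rtTA. The 2i+LIF BP14A ESCs carry in addition doxycycline-dependent (tetO) Blimp1, Prdm14 and Tfap2c transgenes in piggyBac vectors, and their label names no doxycycline. E5.5 epiblast is embryo tissue of C57BL/6 mice of unknown sex.

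Naive ESCs correspond to the epiblast before implantation. The 2i medium blocks MEK, and with it the FGF and ERK pathway, and it blocks GSK3, which keeps WNT signalling through beta-catenin on, while LIF acts through STAT3. On removal of these and exposure to activin and basic FGF, cells lose the naive transcription factor network, keep Pou5f1 and take up genes of the epiblast after implantation. EpiLCs are a transient state that can respond to BMP4 by forming primordial germ cell-like cells.

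Values are log2 probe set levels, quantile normalised over the 32 arrays. A gene is given by its brightest probe set and was tested where at least 1 group averaged 4.05 or more, the 40th percentile of all values. A gene is counted as higher or lower where limma's adjusted p (Benjamini-Hochberg, over 15497 tested genes) was under 0.05 and the difference at least 2-fold. By this rule 1125 genes were higher and 1099 were lower in 48 h EpiLCs than in 2i+LIF ESCs, which is 14.4% of all tested genes, 7.26% higher and 7.09% lower. The median difference over all tested genes was 0.02 on the log2 scale. Arrays of a group correlated at 0.968 in EpiLCs and 0.979 in ESCs, and arrays of different groups at 0.911 to 0.925 over all genes. Gapdh control probe sets fell off towards the 5′ end by 0.72 and 1.02 in EpiLC replicates 1 and 2 and by 1.08 and 0.68 in the ESC replicates, with overlapping values. Levels come from bulk samples, in which fewer cells that express a gene and less RNA per cell cannot be told apart.

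Most of the counted genes differed by 2-fold to 4-fold (762 higher, 733 lower), and 43 higher and 58 lower genes differed by 16-fold or more. Among those 16-fold genes, 23 of the higher ones averaged under 4.05 in ESCs and 30 of the lower ones averaged under 4.05 in EpiLCs. Their folds rest on a dim signal on one side. The largest rise was that of Car4, a membrane-bound carbonic anhydrase, at 11.67 and 12.34 in EpiLCs against 3.71 and 2.56 in ESCs (difference 8.87 ± 0.35 SE, limma adjusted p = 1.87e-12). Myl9, a myosin regulatory light chain, had 9.71 and 10.06 in EpiLCs, against 3.56 and 2.65 in ESCs. Dcn, the matrix proteoglycan decorin, had 6.88 and 7.93 in EpiLCs, against 1.41 and 1.67 in ESCs. In each of these genes both EpiLC arrays lay far above both ESC arrays. Further rises over 4.9 on the log2 scale were found for Rgs2 (5.97), a regulator of G protein signalling, Gabra5 (5.32), a GABA receptor subunit, Tmem59l (5.24), Slc35d3 (5.09), Syt13 (4.94), a synaptotagmin, and Inpp5f (4.93), an inositol phosphatase.

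The largest fall was that of Jam2, a junctional adhesion molecule, at 3.77 and 4.25 in EpiLCs against 11.84 and 12.21 in ESCs (difference -8.01 ± 0.27, limma adjusted p = 4.61e-13). All 5 of its tested probe sets were counted as lower. Lrrc34 (-6.10), Plagl1 (-6.07), Qpct (-5.90), a glutaminyl cyclase, Dnah8 (-5.69), an axonemal dynein, Manba (-5.56), a lysosomal mannosidase, and Id4 (-5.55) followed outside the naive genes described next. Manba had 3.89 and 3.51 in EpiLCs, against 8.28 and 10.23 in ESCs, and without ESC replicate 2 it was not counted, at a difference of -4.58 (limma adjusted p = 0.071).

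**Figure D1:**
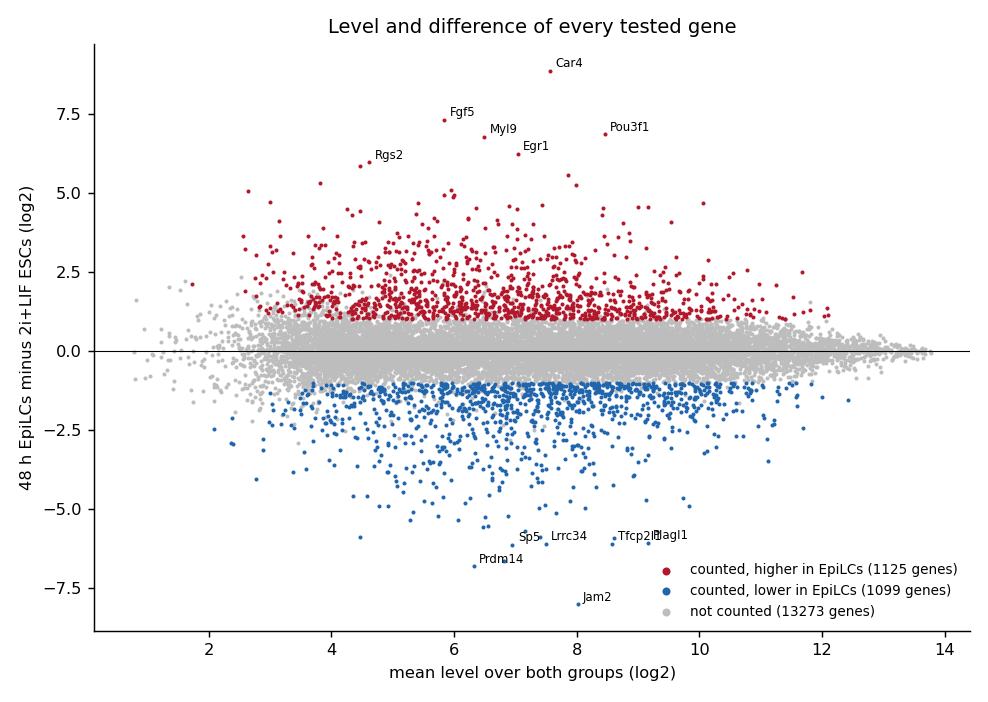
Each point is 1 of the 15497 tested genes, with the mean of the 48 h EpiLC and 2i+LIF ESC levels (log2) on the horizontal axis and the difference, EpiLCs minus ESCs (log2), on the vertical axis. The 1125 counted higher genes (red) and 1099 counted lower genes (blue) lie at all levels, and the 6 largest rises and 6 largest falls are named, from Car4 at 8.87 to Jam2 at -8.01.

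The naive pluripotency list fell almost as a whole. Of its 17 tested members 16 were lower and 0 higher, with a median difference of -3.36, against 0.02 over all tested genes. Prdm14, which represses FGF signalling and DNA methyltransferases in naive cells, had 2.65 and 3.18 in EpiLCs, against 9.67 and 9.79 in ESCs (difference -6.82 ± 0.25, limma adjusted p = 1.64e-12). Tfcp2l1, a naive transcription factor downstream of STAT3, had 4.92 and 6.14 in EpiLCs, against 11.50 and 11.76 in ESCs. The same wide gap, with no overlap, was seen for Nr5a2 (difference -5.90), Tcl1 (-5.91), Klf4 (-5.36) and Klf2 (-4.71), the last 2 being Kruppel-like factors of the naive network. Tbx3 (-4.15), Fbxo15 (-3.36) and Nanog (-3.03) fell by intermediate amounts. Zfp42 (-1.87), Klf5 (-1.81) and Sox15 (-1.14) fell least among those with a clear gap, and Zfp42, also called Rex1, still had 9.78 and 9.55 in EpiLCs, against 11.64 and 11.43 in ESCs.

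Gbx2, a homeobox gene of naive cells, was the member not counted, at 6.79 and 7.72 in EpiLCs against 7.25 and 6.98 in ESCs, and these arrays overlap. Zfp57, which protects imprints, was counted at -1.0005 in all arrays, but its difference was -0.58 without ESC replicate 1 (limma adjusted p = 0.17) and -0.80 without EpiLC replicate 1 (limma adjusted p = 0.093). For Klf5 and Tbx3 the probe sets disagreed. Klf5 fell by 1.81 on the log2 scale with its brighter probe set and was not counted with the other (-0.29). Tbx3 fell with 2 of its 4 tested probe sets (-4.15 and -2.58) and was not counted with the others (-0.07 and 1.07).

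The EpiLC replicates were not at the same point for every naive gene. Esrrb, an orphan nuclear receptor of the naive network, had 5.91 in EpiLC replicate 1 and 8.82 in replicate 2, against 12.28 and 12.29 in ESCs (difference -4.92 ± 0.53, limma adjusted p = 9.35e-07). Nr0b1 had 6.76 and 9.20 in EpiLCs, against 10.01 and 10.44 in ESCs. In both genes replicate 2 lay nearer to ESCs, yet below both ESC arrays. The difference of Nr0b1, -2.25 in all arrays, was -3.47 without EpiLC replicate 2 and -1.03 without EpiLC replicate 1. Replicate 2 was the higher EpiLC array for 11 of the 17 naive genes, with a median gap of 0.39 between the EpiLC replicates, and replicate 2 was higher for 7 of the 17 between the ESC replicates, with a median gap of -0.11.

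Of 12 tested genes of general pluripotency 2 were higher and 2 lower, and the median difference was -0.05. Pou5f1, the core pluripotency factor, had 12.66 and 12.82 in EpiLCs, against 12.82 and 12.78 in ESCs (difference -0.06 ± 0.14), so the groups overlap. Sox2, its partner, fell to 9.71 and 10.53 in EpiLCs, against 12.39 and 12.19 in ESCs (difference -2.17 ± 0.20, limma adjusted p = 9.11e-08). Utf1, a chromatin factor of pluripotent cells, rose to 12.20 and 12.40 in EpiLCs, against 10.25 and 10.17 in ESCs. Dppa2 was counted as higher (1.12), and its difference was 0.81 without EpiLC replicate 2, with a limma adjusted p of 0.073.

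Genes of the epiblast after implantation rose together. Of the 17 tested members 15 were higher and 0 lower, with a median difference of 3.04. Fgf5, the FGF ligand that marks this epiblast, had 9.76 and 9.24 in EpiLCs, against 2.09 and 2.28 in ESCs (difference 7.32 ± 0.41, limma adjusted p = 2.03e-10). Pou3f1, a POU domain factor, had 11.79 and 11.98 in EpiLCs, against 5.25 and 4.79 in ESCs (difference 6.86 ± 0.39). ESC levels of Fgf5 lay under the 4.05 limit, so that its fold is uncertain, whereas those of Pou3f1 lay above it. Otx2, which directs the move to the primed state, had 8.89 and 8.99 in EpiLCs, against 6.00 and 6.57 in ESCs (difference 2.66 ± 0.39). Pim2 (4.67), a kinase, Sox3 (4.31), Sfrp2 (3.62), a secreted WNT antagonist, Fgf15 (3.53), Sall2 (3.32) and Grhl2 (3.04), an epithelial transcription factor, rose too. Zic5 (1.70), Zic2 (1.56), zinc finger factors, and Foxd3 (1.34) were counted with smaller rises.

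Sox4 was counted at 4.52 with its brightest probe set, and 2 of its 5 tested probe sets were counted, the other 3 lying between -0.05 and 0.49. Lef1 (0.91) and Tead2 (0.95) were the members not counted. Lef1 had 8.09 in EpiLC replicate 1 but 6.54 in replicate 2, against 6.42 and 6.40 in ESCs, whereas all Tead2 values of EpiLCs, 11.52 and 11.52, lay above those of ESCs, 10.60 and 10.52.

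**Figure D2:**
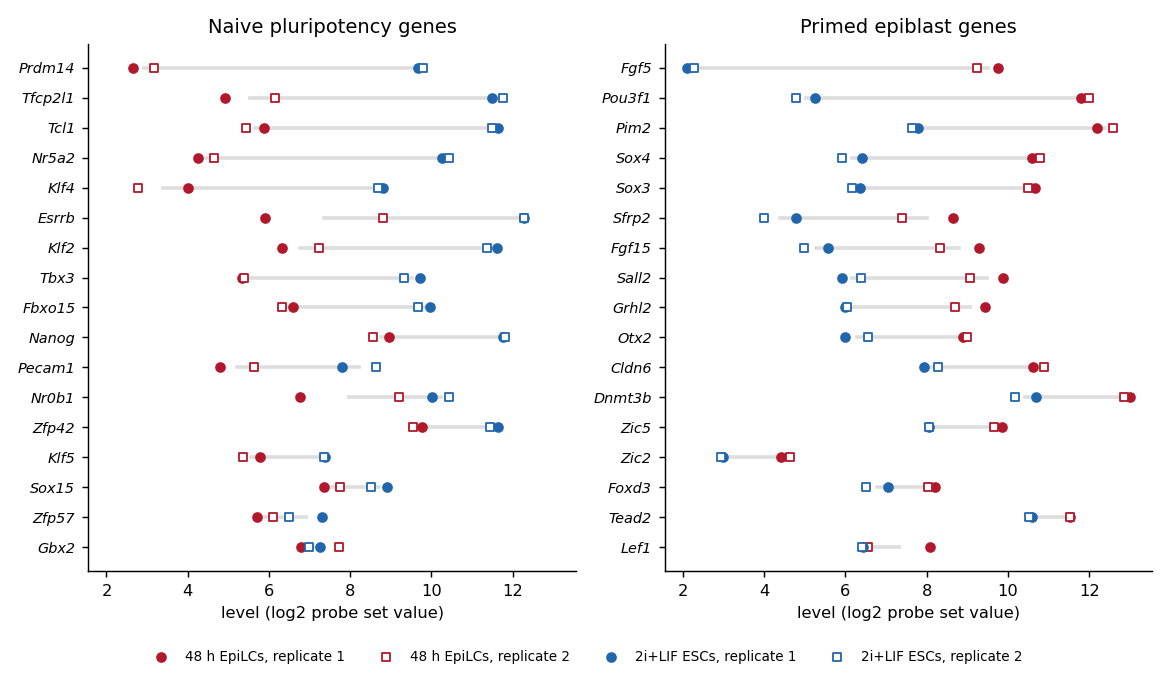
Levels (log2 probe set value, horizontal axis) of the 17 naive and the 17 primed genes in each array, 48 h EpiLCs in red and 2i+LIF ESCs in blue, replicate 1 filled and replicate 2 open, with a grey bar between the group means. The naive genes lie to the left in EpiLCs apart from Gbx2, the primed genes lie to the right, and Esrrb and Nr0b1 show the widest gap between the EpiLC replicates (5.91 and 8.82 for Esrrb).

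The enzymes that set new DNA methylation rose. Dnmt3a had 11.50 and 11.65 in EpiLCs, against 7.49 and 7.53 in ESCs (difference 4.07 ± 0.27, limma adjusted p = 2.14e-09), and all 5 of its tested probe sets were counted as higher. Dnmt3b had 13.01 and 12.86 in EpiLCs, against 10.68 and 10.16 in ESCs (difference 2.51 ± 0.61, limma adjusted p = 0.00448). Both are de novo methyltransferases, and in neither did the groups overlap. Dnmt3l, their cofactor without catalytic activity, was not counted, with 10.44 and 10.71 in EpiLCs against 11.29 and 10.93 in ESCs (difference -0.54 ± 0.26). The maintenance enzyme Dnmt1 (-0.13) and its partner Uhrf1 (-0.28) were not counted, nor were Tet1 (-0.29) and Tet2 (-0.36), which oxidise methylcytosine. Gadd45a (1.40) was also higher, so that 3 of 12 genes of DNA methylation were higher and 1 was lower, with a median of -0.10. Of 17 genes of histone methylation 3 were lower and 0 higher, a counted share of 17.6% that is near the 14.4% of all tested genes. These were Kdm3a (-2.22), an H3K9 demethylase, Suz12 (-2.08), a core subunit of the Polycomb complex PRC2, and Mtf2 (-1.26), a PRC2 accessory subunit. The PRC2 subunits Ezh2 (-0.67) and Eed (-0.94) passed limma's adjusted p but not the 2-fold limit.

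Genes that respond to ERK, the kinase held back by 2i, were higher or not counted. In the ERK list 9 of 19 genes were higher and 0 lower, with a median difference of 1.47. Egr1, an immediate early transcription factor, had 10.26 and 10.06 in EpiLCs, against 4.12 and 3.72 in ESCs (difference 6.24 ± 0.29, limma adjusted p = 1.95e-11). Dusp4 (2.48), a phosphatase of ERK, Myc (2.50), Etv4 (1.85), an ETS factor downstream of FGF, Phlda1 (1.86), Dusp5 (1.97) and Spry1 (1.47), a feedback inhibitor, also rose. Dusp6, the ERK phosphatase, varied widely, at 9.93 and 7.29 in EpiLCs against 6.01 and 4.69 in ESCs (difference 3.26 ± 0.85, limma adjusted p = 0.00783). Without EpiLC replicate 1 its difference was 1.93 (limma adjusted p = 0.17), and without ESC replicate 2 it was 2.59 (limma adjusted p = 0.10). Egr2 (1.53) lost its call in 3 of the 4 repeats that leave out 1 array, the lowest value being 0.96 without ESC replicate 2. Spry4 (0.44), Spry2 (0.70), Etv5 (0.18) and Dusp1 (-0.34) were not counted, although 1 of 3 tested probe sets of Spry4 was counted (1.36). Among 12 FGF ligands and receptors Fgf5 and Fgf15 were higher and Fgf17 was lower (-1.46, and -0.86 without EpiLC replicate 2, under the 2-fold limit), and Fgf4, the main ligand of ESCs, was not counted (-0.65 ± 0.24).

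Several targets of WNT and beta-catenin fell. Sp5, a direct target, had 4.02 and 3.73 in EpiLCs, against 10.21 and 9.84 in ESCs (difference -6.15 ± 0.48, limma adjusted p = 1.38e-08). Cdx1 (-4.32), Notum (-3.22), a secreted WNT inhibitor, Axin2 (-3.11) and Rnf43 (-1.46), negative regulators of the pathway, were lower as well. Axin2 had 6.77 and 5.97 in EpiLCs, against 10.003 and 8.97 in ESCs, and its mean over all probe sets was not counted (-1.16, limma adjusted p = 0.069). In the list of 14 genes 5 were lower and 2 higher, with a median of -0.42. The higher ones were Nkd2 (1.64), an inhibitor, and Tcf7l1 (1.19), the repressor of WNT targets in ESCs.

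Receptors and targets of the LIF pathway were lower or not counted. In this list 7 of 14 genes were lower and 0 higher, with a median of -1.38. Socs3, a feedback inhibitor and direct STAT3 target, had 6.32 and 5.27 in EpiLCs, against 10.31 and 9.88 in ESCs (difference -4.30 ± 0.44, limma adjusted p = 5.53e-07). The receptor subunits Lifr (-3.07) and Il6st (-2.56), also called gp130, the transducer Stat3 (-2.02) and the target Bcl3 (-3.59) fell, as did Klf4 and Tfcp2l1, which also stand in the naive list. Jak1 (-0.51) and Pim1 (0.90) were not counted.

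Smaller shares were counted in the Nodal list (29.4%) and the BMP list (25.0%) than in the LIF list (50.0%). Both lay above the 14.4% of all tested genes. Of 17 Nodal pathway genes 2 were higher and 3 lower, with a median of -0.12. Lefty2 (-2.68) fell while Lefty1, at 11.75 and 12.51 in EpiLCs against 10.84 and 11.08 in ESCs, was counted as higher (1.17), both being secreted Nodal antagonists. Without EpiLC replicate 2 the difference of Lefty1 was 0.79 (limma adjusted p = 0.054). Skil (2.12), a SMAD co-repressor, rose and Pcsk6 (-1.79), a convertase of Nodal, fell. Fst (-1.48), the activin antagonist follistatin, was not counted without ESC replicate 1 (-1.39) or EpiLC replicate 2 (-1.21). Among 12 BMP genes 3 were lower and 0 higher. Id4 had 3.89 and 3.68 in EpiLCs, against 9.35 and 9.32 in ESCs, and Bmp7 differed by -1.21. Bmp4 was counted at -1.04, and without EpiLC replicate 1 (-0.81) or ESC replicate 2 (-0.78) it was not. Id1 (-0.70) and Id3 (-0.94), further BMP targets, were not counted.

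**Figure D3:**
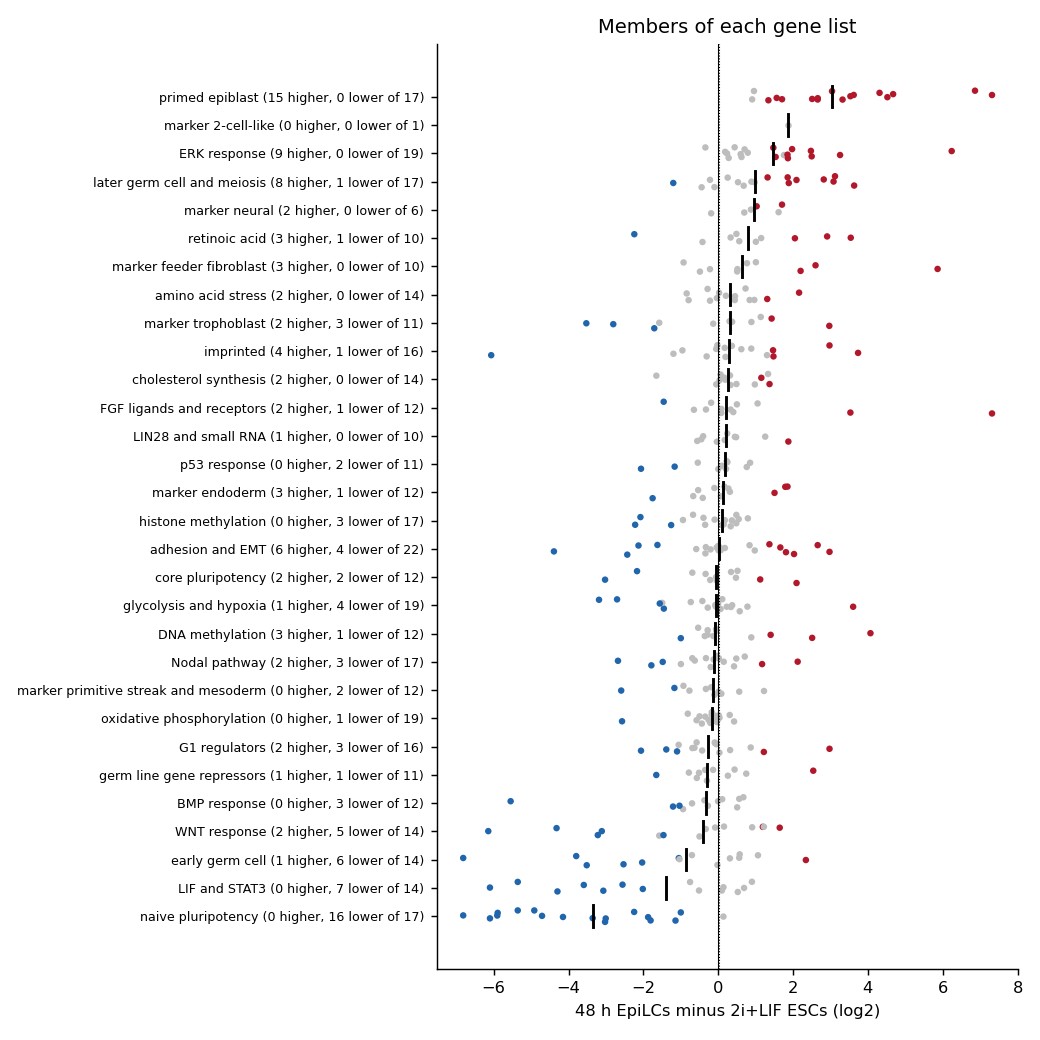
Differences (48 h EpiLCs minus 2i+LIF ESCs, log2, horizontal axis) of the tested members of 30 gene lists, 1 point per gene, red where counted as higher, blue where counted as lower and grey where not counted, with the list median as a black bar, a solid line at 0 and a dotted line at the median of all tested genes. Lists are ordered by median, from 3.04 for primed epiblast genes at the top to -3.36 for naive genes at the bottom.

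Of 14 genes of early germ cells 6 were lower and 1 higher, with a median of -0.87. The 3 factors that the series uses as transgenes all fell, each with no overlap: Prdm14 as given above, Tfap2c (difference -3.80 ± 0.29, limma adjusted p = 1.26e-08) and Prdm1, which encodes Blimp1 (-2.53 ± 0.33, limma adjusted p = 8.35e-06). Kit (-3.52), the receptor of SCF, and Elf3 (-2.03) fell too. Dppa3, also called stella, had 8.66 and 9.71 in EpiLCs, against 10.37 and 10.11 in ESCs, and its call (-1.05) was lost without EpiLC replicate 1 (-0.53) and without ESC replicate 1 (-0.93). Rhox5, an X-linked homeobox gene, rose (2.34).

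Of 17 genes of later germ cells and meiosis 8 were higher and 1 lower, with a median of 0.97, and the lists were not tested against each other. Mael, which acts in transposon silencing in germ cells, had 9.31 and 9.25 in EpiLCs, against 5.59 and 5.71 in ESCs (difference 3.63 ± 0.34, limma adjusted p = 1.37e-07). Slc25a31 (3.12), a mitochondrial ADP/ATP carrier of germ cells, Sycp3 (3.08) and Sycp1 (2.09), proteins of the synaptonemal complex, Tdrkh (2.82), a Tudor protein of the piRNA pathway, Ddx4 (1.88), Taf7l (1.86) and Stk31 (1.32) were also higher. In ESCs, Sycp1 had 3.70 and 3.72, Slc25a31 had 3.46 and 3.62 and Tdrkh had 3.27 and 3.36, all under the 4.05 limit. Dazl (0.89) and Piwil2 (0.97) were not counted, and Hsf2bp (-1.20) was lower. With any 1 array left out, 7 to 9 genes of this list were higher. Among 11 genes of complexes that repress germ line genes 1 was higher and 1 lower (18.2% counted, against 14.4% of all tested genes). Mga fell (-1.66), with a call lost without ESC replicate 2 (-1.22). Its mean over all probe sets was not counted (-0.72, limma adjusted p = 0.051). Cbx3 was counted as higher (2.54, with 5.34 and 7.61 in EpiLCs against 3.83 and 4.04 in ESCs, and 1.40 without EpiLC replicate 2). Its ESC values lay under the 4.05 limit, so that its fold is uncertain. Max (-0.14), Pcgf6 (0.26) and L3mbtl2 (-0.30) were not counted.

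The promoters of these 8 genes were searched for the letters CACGTG, the E-box bound by MAX and its partners, which reads the same on both strands. The window was the 250 bases before the RefSeq start (build GRCm38.p6). The letters stood in 7 of the 8 promoters, Tdrkh being the exception. They stood in 3 of the 8 available promoters of list members that were not higher, in 6.05% of all 27025 promoters, in 8.05% of the promoters of tested genes, in 9.11% of those of higher genes and in 7.24% of those of lower genes. A match describes the letters and is no evidence of binding. The stretches around the match are shown because they are shared by genes that rose together, on the strand of the gene, with CACGTG in capitals:
Mael, chr1:166238932-166238994, minus strand: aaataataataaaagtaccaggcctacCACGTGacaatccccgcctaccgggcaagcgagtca
Slc25a31, chr3:40708748-40708813, plus strand: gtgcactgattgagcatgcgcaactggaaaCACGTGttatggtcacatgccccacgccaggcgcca
Sycp3, chr10:88459514-88459579, plus strand: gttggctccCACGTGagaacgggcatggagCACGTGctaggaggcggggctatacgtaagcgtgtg
Sycp1, chr3:102936159-102936224, minus strand: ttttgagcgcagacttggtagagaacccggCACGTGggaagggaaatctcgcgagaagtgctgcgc
Ddx4, chr13:112652311-112652369, minus strand: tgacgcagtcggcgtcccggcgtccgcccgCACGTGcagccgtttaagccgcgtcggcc
Taf7l, chrX:134476504-134476569, minus strand: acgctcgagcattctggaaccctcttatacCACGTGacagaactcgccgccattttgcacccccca
Stk31, chr6:49395454-49395519, plus strand: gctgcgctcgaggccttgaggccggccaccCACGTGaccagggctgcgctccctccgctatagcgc
The Sycp3 promoter held 2 matches. The first base of the match nearest to the start lay between 29 bases (Ddx4) and 223 bases (Mael) before it.

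For the WNT genes the letters CTTTGAT, a core motif of TCF and LEF factors, were searched on both strands in the same window. They stood in 3.23% of all promoters, in 2.49% of those of tested genes and in 1 of the 3 promoters available for the WNT genes that fell, that of Sp5, shown with the motif in capitals:
Sp5, chr2:70474789-70474855, plus strand: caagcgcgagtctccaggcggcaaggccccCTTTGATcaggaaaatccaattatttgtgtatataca

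Epithelial and matrix genes changed in both directions. In the adhesion list 6 of 22 genes were higher and 4 lower, with a median of 0.03. Esrp1 (2.97), an epithelial splicing regulator, the claudins Cldn6 (2.66) and Cldn7 (1.66), Podxl (2.03) and the integrin Itga5 (1.37) rose. Twist1 (1.81), a mesenchymal factor, was counted, but not without either ESC array or EpiLC replicate 1, at 1.51 to 2.02. Lama1, a laminin chain, had 4.63 and 4.46 in EpiLCs, against 8.82 and 9.05 in ESCs (difference -4.39 ± 0.36, limma adjusted p = 3.14e-08). The fibronectin gene Fn1 (-2.43), the intermediate filament gene Vim (-2.13) and the N-cadherin gene Cdh2 (-1.63) fell as well. E-cadherin, Cdh1, had 12.56 and 12.34 in EpiLCs, against 12.43 and 12.55 in ESCs, with overlapping groups (-0.04).

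Of the metabolic lists, glycolysis had the most counted genes. In this list 4 of 19 genes were lower and 1 higher (26.3% counted, against 14.4% of all tested genes), with a median of -0.07. Slc16a3, a lactate exporter, had 10.71 and 10.25 in EpiLCs, against 7.41 and 6.34 in ESCs (difference 3.60 ± 0.49, limma adjusted p = 1.69e-05). Pfkp (-2.70), Slc2a3 (-1.56), a glucose transporter, and Hk1 (-1.45), a hexokinase, were lower, while the general enzymes Aldoa, Tpi1, Pgam1, Pkm and Ldha lay between -0.08 and 0.11. Eno2 was counted at -3.19 with 1.66 and 2.27 in EpiLCs against 4.96 and 5.35 in ESCs, and was not counted without ESC replicate 1, ESC replicate 2 or EpiLC replicate 1, at -3.38 to -2.88. For Pfkp and Slc2a3 the probe sets disagreed, and means over all probe sets were not counted (-0.83 and -0.60). Of 19 genes of oxidative phosphorylation 1 was lower and 0 higher (5.26% counted), with a median of -0.18. That gene, Cox7a1 (-2.57), was not counted without ESC replicate 1 (-1.79) or without EpiLC replicate 2 (-1.28). Lss (1.37) and Mvd (1.15) of cholesterol synthesis, 2 of 14, and Chac1 (2.16) and Phgdh (1.31) of amino acid stress and serine synthesis, 2 of 14, were higher, a share of 14.3% in each list that is near the 14.4% of all tested genes.

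In the list of G1 regulators 2 of 16 genes were higher and 3 lower. The inhibitor gene Cdkn1c, which is imprinted, had 8.86 and 9.30 in EpiLCs, against 6.04 and 6.17 in ESCs (difference 2.97 ± 0.34, limma adjusted p = 2.02e-06), and Ccne1, a G1 cyclin, differed by 1.22. Cdkn1a (-2.06), Cdk6 (-1.39) and Rbl1 (-1.10) were lower, and without EpiLC replicate 2 none of these 3 was counted, at -1.34, -0.91 and -0.94. Cdkn1a was also not counted without ESC replicate 1 (-1.64), nor Rbl1 without ESC replicate 2 (-0.90). Of 11 targets of p53 2 were lower and 0 higher (18.2% counted, against 14.4% of all tested genes). These were Cdkn1a and Trp53inp1 (-1.17), and Trp53inp1 was not counted without ESC replicate 2 (-0.97). Of 10 genes of retinoic acid signalling 3 were higher and 1 lower: the binding protein gene Crabp2 (3.54), the receptor gene Rarg (2.91) and Dhrs3 (2.05) rose, and Aldh1a2 (-2.24), which makes retinoic acid, fell. Of 16 imprinted genes 4 were higher, Phlda2 (1.48) and Ndn (1.46) among them, and 1 lower. Plagl1, a zinc finger factor, had 6.76 and 5.49 in EpiLCs, against 11.99 and 12.39 in ESCs (difference -6.07 ± 0.37, limma adjusted p = 5.72e-10), and Grb10, an adaptor of growth factor receptors, had 10.90 and 10.53 in EpiLCs, against 6.91 and 7.05 in ESCs (difference 3.74 ± 0.27). Each was counted with 1 of its tested probe sets, 2 for Plagl1 and 3 for Grb10, the others lying between -0.24 and 0.35. Of 10 genes of the LIN28 and small RNA list 1 was higher and 0 lower, a share below the 14.4% of all tested genes. Lin28a, which blocks let-7 maturation, was counted at 1.87, and its difference was 1.56 without ESC replicate 2 (limma adjusted p = 0.051).

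Markers of other cell types were counted as different in 16.7% of the streak and mesoderm list, 33.3% of the endoderm list, 3 of 10 genes of the fibroblast list, 45.5% of the trophoblast list and 33.3% of the neural list, against 14.4% of all tested genes, and in none of the 2-cell-like list (1 gene). None of the tested markers was at 0 in any of the 4 arrays. Of 12 markers of primitive streak and mesoderm 0 were higher and 2 lower, Gsc (-2.59) and Eomes (-1.17), and neither was counted without EpiLC replicate 2 (-2.17 and -0.65), nor Eomes without ESC replicate 1 (-1.06). The summed linear level of this list was 396 and 303 in EpiLCs, against 583 and 502 in ESCs. Of 12 endoderm markers 3 were higher, Amn (1.85), Col4a1 (1.79) and Dab2 (1.50), and 1 lower, Sparc (-1.75). Gata4, Gata6, Sox7 and Sox17, further members of this list, lay between 3.38 and 5.60 in all EpiLC arrays and were not counted. Amn was not counted without EpiLC replicate 1 (1.57), and Col4a1 was not counted without either EpiLC array (1.68 and 1.90) or ESC replicate 1 (1.41). The summed linear level of the endoderm list was 2068 and 2489 in EpiLCs, against 6505 and 5459 in ESCs. Sparc made up most of this sum, at log2 levels of 10.51 and 10.91 in EpiLCs against 12.60 and 12.32 in ESCs. The list median was 0.12. Of 10 markers of feeder fibroblasts 3 were higher, Dcn, Thy1 (2.60) and Loxl1 (2.20), and their summed linear level over the list was 843 and 747 in EpiLCs, against 313 and 241 in ESCs. The median of the fibroblast list was 0.64, and 7 of its 10 members lay above 0. The collagen genes of this list were not counted. Col1a1 had 3.32 and 3.19 in EpiLCs, against 3.08 and 4.40 in ESCs. Col3a1 had 4.47 and 4.30 in EpiLCs, against 3.95 and 3.79 in ESCs. The summed level of trophoblast markers was 2587 and 4042 in EpiLCs, against 1609 and 1905 in ESCs, and Krt18 made up most of the EpiLC sums. Of the 11 markers 2 were higher and 3 lower, with a median of 0.30. Krt18, a keratin, had 10.83 and 11.38 in EpiLCs, against 8.16 and 8.12 in ESCs. Ascl2 (1.43) was under the 2-fold limit without EpiLC replicate 2 (0.80). Gata2 (-3.53), Plet1 (-2.81) and Tfap2a (-1.71) fell, and Cdx2 had 1.03 and 1.58 in EpiLCs, against 3.20 and 2.56 in ESCs. Means over all probe sets were not counted for Gata2 (-1.76) or Tfap2a (-0.59). The other tested probe set of Gata2 (-0.0014, dim at 1.05 in both groups) was not counted, nor was 1 of Plet1 (-0.44). Of 6 neural markers Map2 (1.70) and Pax6 (1.03) were higher, the summed level being 819 and 494 in EpiLCs, against 277 and 203 in ESCs. The median of the neural list was 0.95. Neither Map2 (0.60) nor Pax6 (0.39) was counted with the mean over all probe sets. Pax6 was lost as a call in every repeat that left out 1 array. The part of other cells in the results was not tested.

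A related difference in the series, with no array in common, is that of 36 h EpiLCs minus 2i+LIF BP14A ESCs, called the 36 h step here. Its EpiLCs come from the parental clone and its ESCs from the transgenic BP14A clone, so it holds a difference of clone and transgenes as well as of cell state. Time, clone, background, transgenes and array series all differ between these steps and cannot be told apart. Of the 1125 genes higher at 48 h, 1069 (95.0%) also had a positive 36 h step and 743 (66.0%) a 2-fold rise or more, which 8.62% of all tested genes had. Of the 1099 lower genes, 1047 (95.3%) had a negative 36 h step and 759 (69.1%) a 2-fold fall or more, which 9.14% of all tested genes had. Median steps of the higher genes were 1.62 at 48 h and 1.38 at 36 h, and of the lower genes -1.61 at 48 h and -1.46 at 36 h. The genes were chosen by their 48 h step, which favours a larger median there. Fgf5 had steps of 7.32 at 48 h and 7.35 at 36 h, Pou3f1 of 6.86 and 6.95, Prdm14 of -6.82 and -7.06 and Mael of 3.63 and 3.65.

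The difference between the 48 h and the 36 h step passed the same test for 142 genes, 0.916% of those tested, of which 87 were more positive (0.561%) and 55 more negative (0.355%) at 48 h. The count was 229 without 48 h EpiLC replicate 2, and 65 to 84 without any of the other arrays except 48 h EpiLC replicate 1 (127). Immediate early genes led the more positive ones. Egr1 had a 48 h step of 6.24 and a 36 h step of -1.85 (difference of steps 8.08 ± 0.41, limma adjusted p = 9.40e-10). The EpiLCs had 10.26 and 10.06 at 48 h and 10.65 and 10.39 at 36 h, while ESCs had 4.12 and 3.72 in 2i+LIF and 12.24 and 12.49 in the BP14A line. The EpiLC groups were thus alike and the ESC groups stood apart. Jun (4.92), Fos (5.74) and Egr2 (4.48), further immediate early genes, had the same form, with 8.19 and 8.53 for Jun, 11.15 and 11.09 for Fos and 7.36 and 7.89 for Egr2 in BP14A ESCs, above every array of the other 3 groups. The call of Fos was lost without any of 7 of the 8 arrays, at values between 4.66 and 6.00. In the ERK list 5 of 19 genes were more positive at 48 h.

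Dnmt3l differed in the opposite direction, with a 48 h step of -0.54 and a 36 h step of 2.46 (difference of steps -2.998 ± 0.37, limma adjusted p = 2.53e-04). It had 10.44 and 10.71 in 48 h EpiLCs and 11.06 and 11.25 in 36 h EpiLCs, against 11.29 and 10.93 in 2i+LIF ESCs and 8.90 and 8.49 in BP14A ESCs. Dnmt3a rose in both steps, by 4.07 at 48 h and 6.03 at 36 h, and its ESC level was 7.49 and 7.53 in 2i+LIF ESCs and 6.22 and 5.35 in BP14A ESCs. The difference of its steps, -1.96, was not counted without either 36 h EpiLC array, either 2i+LIF ESC array, EpiLC replicate 1 at 48 h or BP14A replicate 2, the nearest to 0 being -1.53. Eif2s3y, a Y-linked translation factor, had 9.24 and 9.30 in 48 h EpiLCs and 9.61 and 9.26 in 36 h EpiLCs, against 10.05 and 10.25 in 2i+LIF ESCs and 5.48 and 4.83 in BP14A ESCs. Among the 8 tested Y-linked genes it was the 1 whose steps differed by the test. In replicate 1 of the 36 h EpiLCs and of the BP14A ESCs the Gapdh probe sets fell off towards the 5′ end by 3.03 and 2.82, against at most 1.08 in the 48 h EpiLCs and 2i+LIF ESCs. The Actb probe sets showed no wider gap in them, at 2.13 and 3.10 against 2.63 to 3.50. Whether these arrays hold shortened cDNA is thus not settled by the control probe sets. Without these 2 arrays, a repeat chosen after seeing the data, 32 genes were counted, 20 more positive and 12 more negative. Egr1, Jun, Dnmt3l and Eif2s3y remained counted there.

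**Figure D4:**
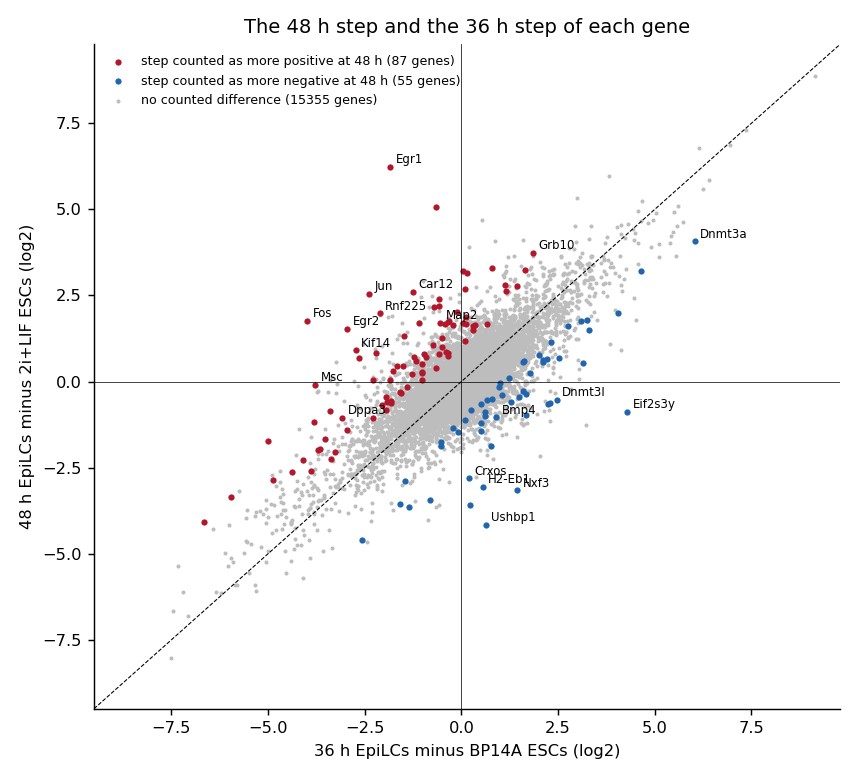
Each point is 1 tested gene, with the 36 h step (36 h EpiLCs minus BP14A ESCs, log2) on the horizontal axis and the 48 h step (48 h EpiLCs minus 2i+LIF ESCs, log2) on the vertical axis, and the dashed line marks equal steps. Most genes lie along the line, the 87 genes with a more positive 48 h step (red) include Egr1 at 6.24 against -1.85, and the 55 with a more negative one (blue) include Dnmt3l at -0.54 against 2.46.

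EpiLCs at 48 h were then set against the E5.5 epiblast, embryo tissue that EpiLCs stand for in culture. By the same test 510 genes were higher and 225 lower in EpiLCs, 4.74% of those tested, 3.29% higher and 1.45% lower. Without epiblast replicate 2 the count was 486. Nupr1, a stress-induced chromatin protein, had 10.56 and 11.38 in EpiLCs, against 4.18 and 3.82 in epiblast (difference 6.97 ± 0.33, limma adjusted p = 1.27e-10), and was also at 12.04 on average in ESCs. Chac1, a target of the ATF4 pathway, had 11.17 and 10.97 in EpiLCs, against 5.92 and 6.45 in epiblast (4.88 ± 0.20), and Atf3 had 9.16 and 8.88 in EpiLCs, against 3.88 and 4.14 in epiblast (5.01 ± 0.36). In the amino acid stress list 6 of 14 genes were higher and 0 lower, with a median of 0.98 against 0.05 over all tested genes, Trib3 (3.69), Ddit3 (2.20) and Asns (1.57) among them. Lefty1 (4.996), Egr1 (5.10), Cebpd (4.19) and Cdkn2b (4.12), an inhibitor of cyclin-dependent kinases, were higher too.

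Some BMP genes were lower in EpiLCs than in epiblast. Id1 had a difference of -3.12 and Id3 of -3.14, and Bmp4 itself of -2.79, so that with Id4 (-1.46) 4 of 12 genes of the BMP list were lower and 0 higher, with a median of -0.91. Id4 was not counted when any 1 of the 4 arrays was left out, at -1.57 to -1.35. Of the primed list 2 of 17 were lower, Otx2 (-1.495) and Foxd3 (-1.55), and 0 higher, while Fgf5 (-0.65), Pou3f1 (-0.13) and Dnmt3b (-0.36) were not counted. The call of Otx2 was lost without either EpiLC array (-1.45 and -1.54) or epiblast replicate 2 (-1.24). Of the naive list 5 of 17 were higher and 0 lower, Klf2 (2.21), Gbx2 (2.65), Fbxo15 (1.98), Zfp42 (1.06) and Tfcp2l1 (1.02), the last of which was not counted without EpiLC replicate 2 (0.42) or epiblast replicate 1 (0.70). Zfp42 passed limma's adjusted p but not the 2-fold limit without EpiLC replicate 1 (0.94) or epiblast replicate 2 (0.97).

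Srgn (-5.75), a proteoglycan, Apoa1 (-4.58), Glrx (-4.35), Lhx1 (-4.20), Cyp26a1 (-3.91), Cubn (-3.80), Apln (-3.79) and Ttr (-3.69) were the largest falls against epiblast. Apoa1, Cubn and Ttr are known in visceral endoderm, the tissue around the epiblast, and 6 of 12 endoderm markers were lower in EpiLCs, with a median of -1.43. Ttr averaged 4.69 in EpiLCs, against 9.81 and 6.96 in the epiblast arrays, and Apoa1 had 4.32 and 3.60 in EpiLCs, against 9.81 and 7.27 in epiblast, so the epiblast arrays differed from each other more than the EpiLC arrays did. Without epiblast replicate 1 the difference of Ttr was -2.26. In the list of streak and mesoderm markers 5 of 12 genes were lower, Eomes (-3.48) and Lhx1 (-4.20) among them. This list shares Foxa2 with the endoderm list, so its members do not mark streak cells alone. The part of other cells in the comparison was not tested.

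**Figure D5:**
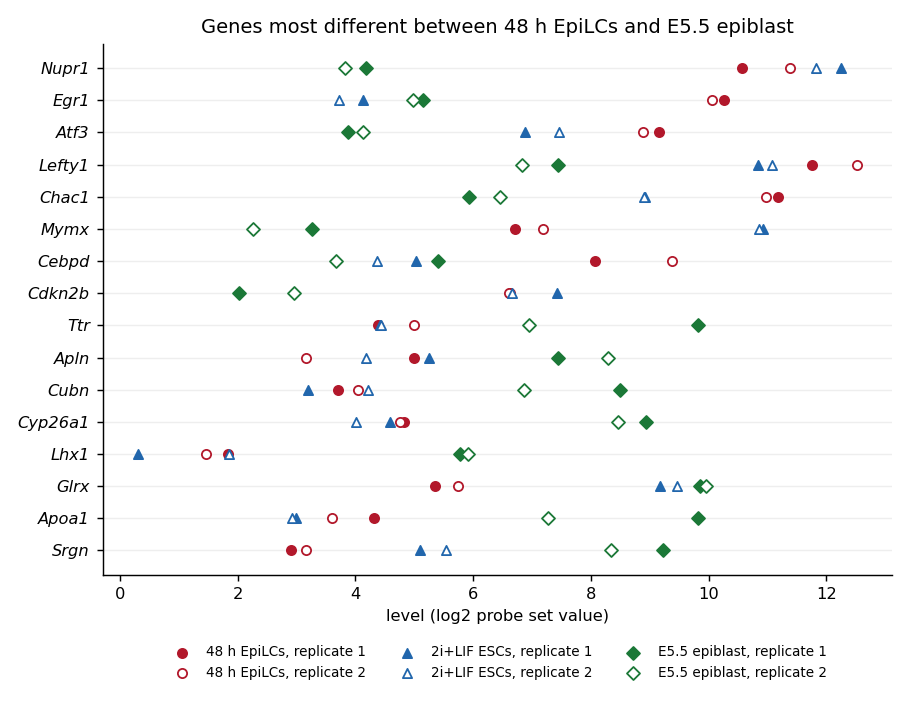
Levels (log2 probe set value, horizontal axis) of the 16 genes with the largest counted differences between 48 h EpiLCs (red circles) and E5.5 epiblast (green diamonds), with 2i+LIF ESCs as blue triangles, replicate 1 filled and replicate 2 open. The top 8 genes, from Nupr1 (6.97 higher) down, are higher in EpiLCs, and the bottom 8, down to Srgn (-5.75), are lower, with the epiblast replicates apart for Ttr, Cubn and Apoa1.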

How the data were processed

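Total RNA of each sample had been amplified and hybridised to 1 Affymetrix array, per the labels' protocols. The authors deposited 1 log2 value per probe set and array (0 to 14.59, array medians 4.62 to 4.79). The software for background correction, summarisation and normalization is not given in the sources used here. No detection calls come with the values, so a dim gene was told from a measured one only by its level, and the 2 arrays a group limit the precision.

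All 32 arrays were quantile normalised. Of 45101 probe sets, 34945 had 1 gene symbol in the platform annotation of 2016, 932 had several and 9160 besides the controls were not listed. A gene was represented by its brightest probe set over all arrays (18193 genes, 9183 with 1 probe set). Genes with a group mean of at least 4.05 were tested with limma 3.58.1 in R 4.3.3 (16 group means, eBayes, 16 residual degrees of freedom, Benjamini-Hochberg adjustment). The contrasts were 48 h EpiLCs minus 2i+LIF ESCs, that step minus the step of 36 h EpiLCs over BP14A ESCs, and 48 h EpiLCs minus E5.5 epiblast. The procedure was tested on simulated data.

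Members and gene lists were chosen with earlier results of these data known. Named genes were the 12 largest rises and 12 largest falls without overlap (Y-linked genes and clone names left out), up to 4 counted members each way per list, a fixed set of pluripotency, signalling and germ cell genes, and the 8 largest differences each way in the other contrasts. Further list members were named after their values were seen. Of 427 listed genes 389 were tested and 26 were not analysed here. Of 160 named genes, 78 had several tested probe sets, which gave the same call for 34 and different calls for 44, with 0 in opposite directions. Values per probe set are given for some of these. Promoter sequences came from RefSeq (GRCm38.p6). Alternatives covered normalization, probe sets, filters, thresholds, the arrays in the fit, a replicate block and each array left out.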

Additional observations from a re-analysis of the deposited data

Results flagged for a closer look

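For 23 named genes the 48 h step (48 h EpiLCs minus 2i+LIF ESCs) and the 36 h step (36 h EpiLCs minus BP14A ESCs) differed by limma's test of the difference itself. All values below are differences of the 2 steps on the log2 scale, 48 h minus 36 h. Time, clone, background, transgenes and array series cannot be told apart in them.

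The 48 h step was the more positive for 12 genes. These were the immediate early genes Egr1 (8.08), Fos (5.74), Jun (4.92) and Egr2 (4.48), then Rnf225 (4.08), Car12 (3.87), a carbonic anhydrase, Msc (3.70), a basic helix-loop-helix factor, Kif14 (3.63), a mitotic kinesin, Map2 (2.26), a microtubule protein of neurons, Dppa3 (2.02), Grb10 (1.88) and Srgn (1.81).

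The 48 h step was the more negative for 11 genes. These were Bmp4 (-1.94), Dnmt3a (-1.96), Naaa (-2.64), Krtap17-1 (-2.90), Fxyd5 (-2.92), Dnmt3l (-2.998), Crxos (-3.02), H2-Eb1 (-3.61), Nxf3 (-4.61), Ushbp1 (-4.80) and Eif2s3y (-5.17).

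Egr1, Jun, Egr2, Rnf225, Car12, Msc, Kif14, Ushbp1, Dnmt3l, Naaa and Eif2s3y kept their call whichever 1 array was left out and also without the 2 arrays with the widest Gapdh 5′ to 3′ gap. Dppa3, Crxos and H2-Eb1 lost it without those 2 arrays, and the other 9 lost it in at least 1 repeat that left out 1 array. With the mean of all probe sets 5 of the 23 genes lost their call, Car12 (0.29), Rnf225 (1.99), Grb10 (0.83), Map2 (0.88) and Dnmt3a (-1.11). With the fit on only the 8 arrays Egr1, Crxos, Ushbp1 and Eif2s3y kept it.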

How the results depend on the processing

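For the step from 2i+LIF ESCs to 48 h EpiLCs the count of 2224 genes was 1909 to 2262 with each array left out in turn (975 to 1095 higher, 934 to 1173 lower) and 3776 with no fold limit (1939 higher, 1837 lower). With only the 4 arrays in the fit the count was 1500 (788 higher, 712 lower). It was 1786 with the 10 earlier arrays and 1791 with the mean of all probe sets. Of the 160 named genes 20 lost their call with only the 4 arrays, Cdkn1a, Dppa3, Nr0b1, Dusp6, Bmp4 and Lefty1 among them.

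For the difference of steps the count of 142 was 94 with the mean of all probe sets (56 more positive), 88 with no filter (51), 40 at an adjusted p under 0.01 (24 and 16 more negative) and 4 with only the 8 arrays in the fit (1 and 3). It was 65 to 229 with each array left out (32 to 103 more positive, 19 to 126 more negative), and 32 (20 and 12) without the 2 arrays with the widest Gapdh gap, chosen after seeing the data.

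For EpiLCs against epiblast the count of 735 was 305 with the 10 earlier arrays (218 higher, 87 lower), 25 with only the 4 arrays (15 and 10), 468 at an adjusted p under 0.01 (119 lower) and 1481 with no fold limit (998 and 483). It was 486 to 818 with each array left out (346 to 557 higher, 140 to 261 lower). With the mean of all probe sets Car12 changed sign (-0.17). The cause of these shifts was not tested.

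The higher share of the counted genes in the step was 50.6%, and 45.4% on the deposited values and 48.6% with median centring. Of 960 list counts recomputed, 882 stayed within 1.5 times. With the replicate number as a replicate block the counts were 2263, 141 and 744 on all 32 arrays, and 2199 for the step and 557 for the epiblast comparison on the 10 earlier arrays. Replicate 1 deviations of the 5 earlier groups correlated at 0.243 to 0.522, but with 2 arrays a group the labels do not establish pairs. A block on the earlier arrays was not run for the difference of steps. Values under 4.05 have no reliable fold.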

Other observations

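Chromosome 11 held fewer higher than lower genes in 48 h EpiLCs against 2i+LIF ESCs. Of its 1246 tested genes 59 (4.74%) were higher and 116 (9.31%) lower, and its median difference of -0.12 was the lowest of 20 chromosomes, against a median 36 h step of 0.00.

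Median levels per chromosome were also set relative to E5.5 epiblast and centred over the chromosomes. Chromosome 8 stood at 0.33 and 0.09 in the 48 h EpiLC arrays, against 0.18 and 0.18 in the 2i+LIF ESC arrays. Chromosome 16 stood at 0.02 and 0.19 in the 48 h EpiLC arrays, against 0.21 and 0.16 in the ESC arrays. The 17 chromosomes other than 8, 11 and 16 ranged between -0.12 and 0.07 in the EpiLC arrays and between -0.15 and 0.13 in the ESC arrays. The EpiLC replicates thus differed from each other on chromosomes 8 and 16. Of the 802 tested genes on chromosome 8, 55 (6.86%) were higher and 39 (4.86%) lower in EpiLCs. Of the 497 on chromosome 16, 24 (4.83%) were higher and 40 (8.05%) lower. The shares of all tested genes were 7.26% higher and 7.09% lower. A shift shared by EpiLCs and ESCs cancels in these counts, so they cannot show it. The group means of chromosome 8 stood at 0.22 in 48 h EpiLCs and 0.17 in 2i+LIF ESCs. They stood at 0.06 in 36 h EpiLCs and 0.01 in BP14A ESCs. The part of these shifts in single genes was not tested.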
